A study of Homo sapiens with 44 samples.

Results

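Transcripts of 10 genes of the NF-kB system were examined in 4 human acute myeloid leukemia (AML) cell lines after knockdown of GSK3A or GSK3B. They are the 5 subunit genes NFKB1, NFKB2, REL, RELA and RELB and 5 feedback or target genes, NFKBIA, NFKBIE, TNFAIP3, TNFAIP2 and TNF. Every probe set that the platform annotation gives to 1 of these symbols alone was taken, which is 16 of the 22215 probe sets that are not controls. They stand for 10 of the 12165 genes measured. The rule itself uses no measured value. Each gene was read on its brightest probe set, by the mean of all arrays.

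The genes GSK3A and GSK3B encode the paralogs of glycogen synthase kinase 3, a serine/threonine kinase with many substrates, and each was knocked down with hairpins and set against a scrambled hairpin on high-throughput Affymetrix human arrays. The lines were promyelocytic HL-60, monocytic U937, and THP-1 and MOLM-14, both monocytic with a rearranged KMT2A gene. In each line, 4 arrays held cells with a hairpin against GSK3A (shGSK3A_5 or shGSK3A_6, 2 arrays each), 4 held cells with a hairpin against GSK3B (shGSK3B_1 or shGSK3B_2, 2 arrays each), and 3 held the scrambled control (shControl). All 44 cultures, the controls included, were infected with a hairpin, put on puromycin at 1 µg per mL from 48 h after infection and harvested 48 h later, and no uninfected culture was among the samples. No inflammatory stimulus is named in the labels. The labels call replicates biological and say no more. Except where stated below, p-values measure the spread between arrays that share line and hairpin, and not that between hairpins of a target.

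NF-kB is a family of dimeric transcription factors. In resting cells the dimers are held in the cytoplasm by inhibitors such as the products of NFKBIA and NFKBIE. Signals from the receptors for TNF, interleukin-1 or bacterial products activate a kinase complex that marks the inhibitors for degradation, and the freed dimers enter the nucleus and bind kappaB sites. NFKB1 and NFKB2 encode precursors of DNA-binding subunits without a transactivation domain of their own, while REL, RELA and RELB encode subunits that carry one. NFKBIA, NFKBIE and TNFAIP3, a ubiquitin-editing enzyme that shuts off signalling above the kinase complex, are themselves switched on by NF-kB and so form negative feedback. TNF, an inflammatory cytokine, and TNFAIP2, a TNF-inducible gene of myeloid and endothelial cells, are further targets. In monocytic cells the family is known for its part in cytokine production and survival.

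The kappaB motif itself stands in the promoters of several of these genes, and the sites below are shown because NF-kB acts on its targets through this motif. The 250 bases before each RefSeq transcription start (GRCh38.p14) were searched on both strands for the kappaB consensus of 10 bases. Of the 10 genes, 8 matched an entry of the promoter table, with 12 promoters, and 6 of these promoters from 5 genes held a match. Among all 35116 promoters, 10.0% held one, and among the 27305 genes 11.8% did. Each line runs 5′ to 3′ on the strand of the gene, and capitals mark the match or overlapping matches, read on either strand.
NFKBIA, chr14:35404796-35404855, minus strand: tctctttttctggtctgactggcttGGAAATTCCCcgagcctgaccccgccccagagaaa
TNFAIP3, chr6:137867188-137867217, plus strand: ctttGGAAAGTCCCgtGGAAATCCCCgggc
REL, chr2:60881502-60881562, plus strand: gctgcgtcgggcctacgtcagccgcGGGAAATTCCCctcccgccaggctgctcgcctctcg
NFKB1, chr4:102501285-102501344, plus strand: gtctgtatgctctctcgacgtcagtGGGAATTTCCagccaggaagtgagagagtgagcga
NFKB2, chr10:102394462-102394490, plus strand: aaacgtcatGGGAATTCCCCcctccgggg
NFKB2, chr10:102394490-102394519, plus strand: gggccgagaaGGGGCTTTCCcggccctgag
NFKB2, chr10:102395519-102395548, plus strand: aacccccaccGGGGCTTCCCggattctcct
NFKB2, chr10:102395674-102395703, plus strand: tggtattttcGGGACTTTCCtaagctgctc

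The match of NFKBIA starts 81 bases before its transcription start and that of NFKB1 49 bases before. REL holds 2 overlapping matches, which start 46 and 47 bases before. TNFAIP3 holds a pair of matches, 55 and 67 bases before the start. The NFKB2 sites belong to 2 of its starts. The windows of RELA, TNFAIP2 and TNF hold no match, which says only that these letters are not in the 250 bases searched.

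The targeted transcripts were read first. On its brightest probe set, GSK3B read 22.4 to 97.7 on the 16 arrays labelled with GSK3B hairpins, against 140.2 to 204 on the 12 control arrays. Its log2 change was −1.56 ± 0.05 (SE; limma, adjusted p = 1.9e-18). GSK3A changed little on arrays labelled with GSK3A hairpins, by −0.09 ± 0.03 (limma, adjusted p = 0.0204), and passed the test within a line only in HL-60, at −0.20 (adjusted p = 0.0163). The labels state that knockdown of both proteins was checked by western blot. Arrays of MOLM-14 and U937 also differed by plate column, columns 1 to 6 against columns 7 to 11 in the well names of the labels, which each hold 1 array of every hairpin in a line. The controls lie with 2 arrays per line in columns 1 to 6 and 1 in columns 7 to 11. Results are therefore also given with plate columns as a block where that changes a call. Fits within 1 set of columns took the hairpins of a target as 1 group per line. Their p-values hold the spread between those hairpins, and in columns 1 to 6 also that between the 2 controls of a line. For a call lost in such a fit, this spread, the plate and the smaller number of arrays cannot be told apart. Of 9 myeloid markers, 5 lay above the array median on every array, whereas the 4 B cell markers summed to 42.7 to 48.6 on GSK3A arrays, 40.7 to 52.7 on GSK3B arrays and 41.2 to 52.9 on control arrays. The 6 T and NK cell markers, of which 1 lay above the array median on every array, summed to 71.0 to 1377 on GSK3A arrays, 84.7 to 1159.5 on GSK3B arrays and 90.2 to 1183 on control arrays. The median deposited intensity of an array was 18.95 to 22.9.

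In control cells the genes of the system differed widely between lines. A moderated F-test in limma called 9 of the 10 genes, with NFKB2 as the exception (adjusted p = 0.633), while 61.1% of all probe sets passed the same test. Between pairs of lines, limma called 44% of all probe sets for HL-60 minus THP-1, 36% for HL-60 minus MOLM-14, 38.6% for HL-60 minus U937, 37% for THP-1 minus MOLM-14, 41.9% for THP-1 minus U937 and 37.6% for MOLM-14 minus U937. The widest span was that of TNF. Its deposited intensity was 194, 213 and 253 in HL-60 controls and 279.7, 284 and 307 in MOLM-14 controls, but 12.8, 20.04 and 23.7 in THP-1 and 20.6, 32.01 and 35.9 in U937. TNF thus formed a high pair and a low pair of lines with no overlap between the pairs. HL-60 lay above THP-1 by 2.81 on the log2 scale (limma, adjusted p = 2.73e-10), whereas HL-60 minus MOLM-14 was −0.40 (0.241) and THP-1 minus U937 was −0.41 (0.21), neither past the test. The low pair sits close to the array medians.

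TNFAIP3 followed a similar order. Its mean was 358 ± 21.6 in MOLM-14, 247 ± 17.7 in HL-60, 99.4 ± 9.86 in THP-1 and 82.8 ± 10.9 in U937 (SD, n = 3 each). MOLM-14 stood above HL-60 by 0.52 (limma, adjusted p = 1.12e-04) and HL-60 above THP-1 by 1.24. THP-1 and U937 did not differ beyond their spread (0.18, adjusted p = 0.149).

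The inhibitors were ordered differently. NFKBIA averaged 325 ± 8.23 in HL-60 and 324 ± 20.9 in THP-1, against 246 ± 20.7 in MOLM-14 and 219.6 ± 19.7 in U937 (SD, n = 3 each), with no difference past the test inside either pair. NFKBIE was highest in U937 (115 ± 18.7) and THP-1 (112 ± 11.6), which did not differ beyond their spread, lower in HL-60 (70.8 ± 2.17) and lowest in MOLM-14 (46.2 ± 9.20). MOLM-14, the line with the highest mean of TNF and TNFAIP3, had the lowest mean of NFKBIE. For TNFAIP2, whose control means were 180.5 ± 2.45 in THP-1, 148 ± 8.48 in HL-60, 130.5 ± 9.11 in U937 and 106 ± 34.1 in MOLM-14, THP-1 minus MOLM-14 alone among the pairs passed the test (0.69, limma adjusted p = 0.00642).

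Among the subunits, REL varied most between lines. It averaged 127 ± 4.07 in U937, 76.8 ± 8.80 in THP-1, 61.5 ± 9.71 in HL-60 and 38.4 ± 4.41 in MOLM-14 (SD, n = 3 each). THP-1 and HL-60 did not differ beyond their spread, and MOLM-14 minus U937 was −1.38 (limma, adjusted p = 8.74e-12). RELA ran the other way for U937, with means of 272 ± 11.04 in THP-1, 242 ± 17.7 in HL-60, 191 ± 30.3 in MOLM-14 and 149 ± 0.690 in U937. HL-60 passed the test over U937 but not over MOLM-14 (0.31, adjusted p = 0.0813), and the other RELA probe set showed no called pair. NFKB1 was lowest in THP-1, at 103 ± 3.61, against 179 ± 3.82 in HL-60, 169 ± 9.10 in MOLM-14 and 158 ± 23.5 in U937. NFKB2 (24.4 to 32.7) and RELB (16.5 to 20.7) had control means near the array medians in every line, and 2 further NFKB2 probe sets and the second REL probe set lay below the array median on all 44 arrays.

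**Figure D1:**
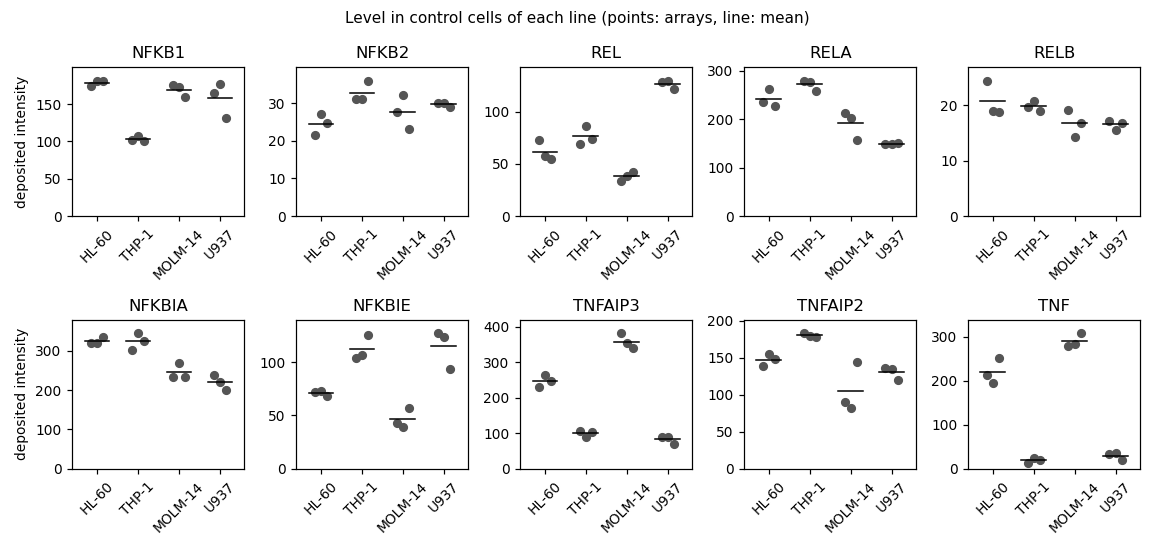
Deposited intensity (vertical axis, linear, from 0) of each gene's brightest probe set in the 3 control arrays of each line (points), with the line mean as a bar. TNF and TNFAIP3 are high in HL-60 and MOLM-14 and low in THP-1 and U937, REL peaks in U937, and RELB and NFKB2 lie near the array medians in all lines.

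With GSK3A hairpins, averaged over the 4 lines, 3 of the 10 genes rose and none fell. All 3 were feedback or target genes: TNFAIP2, NFKBIE and NFKBIA. In this comparison limma called 16.9% of all probe sets, and 8.57% as higher. At an unadjusted p below 0.05 there were 4 of the 10, the other being REL at −0.12 (adjusted p = 0.108). No share of all probe sets was taken at that threshold. None of the 5 subunits passed the test, and their median change was −0.09, while that of the 5 feedback and target genes was 0.17 and that of all probe sets 0.00. REL was called as lower without MOLM-14 shGSK3A_6 replicate 1 (−0.14, adjusted p = 0.03). In these bulk samples, a change in the share of cells that express a gene and a change of its RNA per cell cannot be told apart.

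TNFAIP2 changed most, by 0.53 ± 0.09 on the log2 scale (95% interval 0.34 to 0.71), a 1.44-fold rise (limma, adjusted p = 1.26e-04). In HL-60 its intensity was 338 and 374 with shGSK3A_5, 194 and 215 with shGSK3A_6, and 139, 148 and 156 in controls. All HL-60 GSK3A arrays thus lay above all controls, those of shGSK3A_5 by the wider margin. In MOLM-14 it was 222 and 278 with shGSK3A_5, 145 and 189 with shGSK3A_6, and 81.6, 90.8 and 145 in controls. Here the lowest hairpin array and the highest control array nearly coincide. In U937 it was 179 and 196 with shGSK3A_5 and 151 and 167 with shGSK3A_6, against 120.0, 135 and 136 in controls, again without overlap. THP-1 was the exception, with 206 and 231 for shGSK3A_5 and 159 and 165 for shGSK3A_6 on either side of the controls at 178, 180.2 and 183. The share of all probe sets whose hairpin and control arrays separate within a line was not counted, here or for the genes below.

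By line, the TNFAIP2 change was called in HL-60 (0.79 ± 0.18, limma adjusted p = 0.00655, where 6.91% of all probe sets were called) and in MOLM-14 (0.90 ± 0.18, adjusted p = 0.00114, against 12.3%). RNA quality varied in MOLM-14: the 3′ minus 5′ log2 difference of GAPDH control probe sets averaged 0.43 ± 0.53 on GSK3A arrays and 0.24 ± 0.46 on control arrays (SD, n = 4 and 3), and its part in the change was not tested. In the other lines this difference stayed at or below 0.40 on every array. For ACTB control probe sets it averaged 1.35 ± 0.65 on MOLM-14 GSK3A arrays, 1.45 ± 0.88 on MOLM-14 GSK3B arrays and 0.95 ± 0.53 on MOLM-14 controls (SD). On the MOLM-14 GSK3B arrays the GAPDH difference averaged 0.60 ± 0.83 (SD, n = 4) and reached 1.69. The part of RNA quality in the MOLM-14 values of other genes, or of GSK3B hairpins, was not tested. In HL-60 the ACTB difference ran from 0.82 to 1.04 on GSK3A arrays and from 0.96 to 1.64 on controls, and its part was not tested either. Within columns 1 to 6 of MOLM-14 the TNFAIP2 change was 0.96 (0.125) and within columns 7 to 11 0.61 (0.824). With line and hairpin as a random block, TNFAIP2 stayed called over the lines (adjusted p = 0.0196) but not within HL-60 (0.221) or MOLM-14 (0.0695). This block adds a spread between the hairpins of a line, by 1 correlation for all probe sets (0.091). It takes a hairpin in different lines as independent, so a hairpin effect that the lines share is not in its p-values. Unblocked, TNFAIP2 was not called in U937 (0.36, adjusted p = 0.375, against 4.83%) or THP-1 (0.06, against 1.35%). With plate columns as a block the U937 change passed as well, at 0.40 (adjusted p = 0.00471). The difference of the TNFAIP2 change between lines missed the threshold (moderated F-test, adjusted p = 0.128, 5.57% of probe sets called) and passed it with the block (4.59e-04, 19.1% called). The second TNFAIP2 probe set, which exceeded the array median on only 6 of 44 arrays, gave 0.06 (adjusted p = 0.346).

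NFKBIA, which encodes the inhibitor that NF-kB rapidly restores after activation, rose by 0.17 ± 0.04 (95% interval 0.08 to 0.26; limma, adjusted p = 0.00541). Its largest change was in HL-60, where intensity was 517 and 519.6 with shGSK3A_5, 365 and 376 with shGSK3A_6, and 320.4, 321 and 335 in controls. All 4 hairpin arrays stood above the controls, and the change within HL-60 was 0.40 ± 0.09 (adjusted p = 0.00328). In THP-1 the GSK3A arrays read 347 to 379, also above the controls at 303 to 344, but the change did not pass the test within that line. In MOLM-14 (228 to 283 against 233 to 269.5) and U937 (216 to 263 against 199 to 239) hairpin and control arrays overlapped. Without HL-60 the change over the other lines was 0.10 (adjusted p = 0.372). With line and hairpin as a random block the NFKBIA call was lost over the lines (0.0691) and within HL-60 (0.0824).

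NFKBIE, whose product retains mainly REL- and RELA-containing dimers, rose by 0.23 ± 0.07 (95% interval 0.08 to 0.38; limma, adjusted p = 0.0244). It is the only one of the 10 with a positive change in all 8 combinations of line and GSK3A hairpin. In MOLM-14 it read 73.8 and 85.3 with shGSK3A_5 and 53.8 and 56.6 with shGSK3A_6, against 39.1, 43.0 and 56.6 in controls. The shGSK3A_5 arrays were clear of the controls, and the shGSK3A_6 arrays lay within the control range. In HL-60 it read 101 and 122 with shGSK3A_5 and 73.3 and 81.4 with shGSK3A_6, against 68.4, 71.6 and 72.5, with no overlap. In THP-1 (114 to 132 against 104 to 125) and U937 (95.1 to 157 against 93.3 to 127) the ranges overlapped.

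The NFKBIE call was the only one of the 3 lost when single arrays were left out. Within MOLM-14 it held by a narrow margin (0.43 ± 0.14, adjusted p = 0.0497), was lost in 30 of the 44 fits that left out 1 array (up to 0.234), and held within columns 1 to 6 (0.51, 0.0151) but not within columns 7 to 11 (0.23, 0.885). It was called within HL-60 only with plate columns as a block (0.29, adjusted p = 0.00597). Over the lines it was lost without MOLM-14 (0.17, adjusted p = 0.212), without HL-60 (0.21, 0.182), without MOLM-14 shControl replicate 2 (0.0536) and without U937 shControl replicate 3 (0.0514). With line and hairpin as a random block it was lost over the lines (0.0817) and within MOLM-14 (0.15).

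Plate columns moved with these genes. In MOLM-14, columns 7 to 11 minus columns 1 to 6 gave 0.62 for TNFAIP2 (limma, adjusted p = 4.83e-07) and 0.25 for NFKBIE (0.00107), and in U937 it gave −0.44 for NFKBIE (7.84e-07), −0.23 for TNFAIP2 (0.0186) and −0.21 for NFKBIA (0.00568). Of the other members, RELA (−0.41, 4.02e-05) and TNF (0.60, 7.33e-04) also differed between the column sets in MOLM-14. In U937 so did NFKB1 (−0.18, 2.46e-04), TNFAIP3 (−0.19, 0.0265) and TNF (−0.36, 0.0346). Neither HL-60 nor THP-1 had a member with a called difference between the column sets. With the block, which called 27.7% of all probe sets, the 3 genes were called again, at 0.51 for TNFAIP2 (8.56e-09), 0.18 for NFKBIA (4.47e-04) and 0.23 for NFKBIE (1.43e-05). Within columns 1 to 6 alone the changes were 0.53 for TNFAIP2 (adjusted p = 0.0753), 0.16 for NFKBIA (0.256) and 0.28 for NFKBIE (0.00846). Within columns 7 to 11, with 1 control per line, they were 0.48 (0.5), 0.20 (0.434) and 0.17 (0.668) for the same genes.

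**Figure D2:**
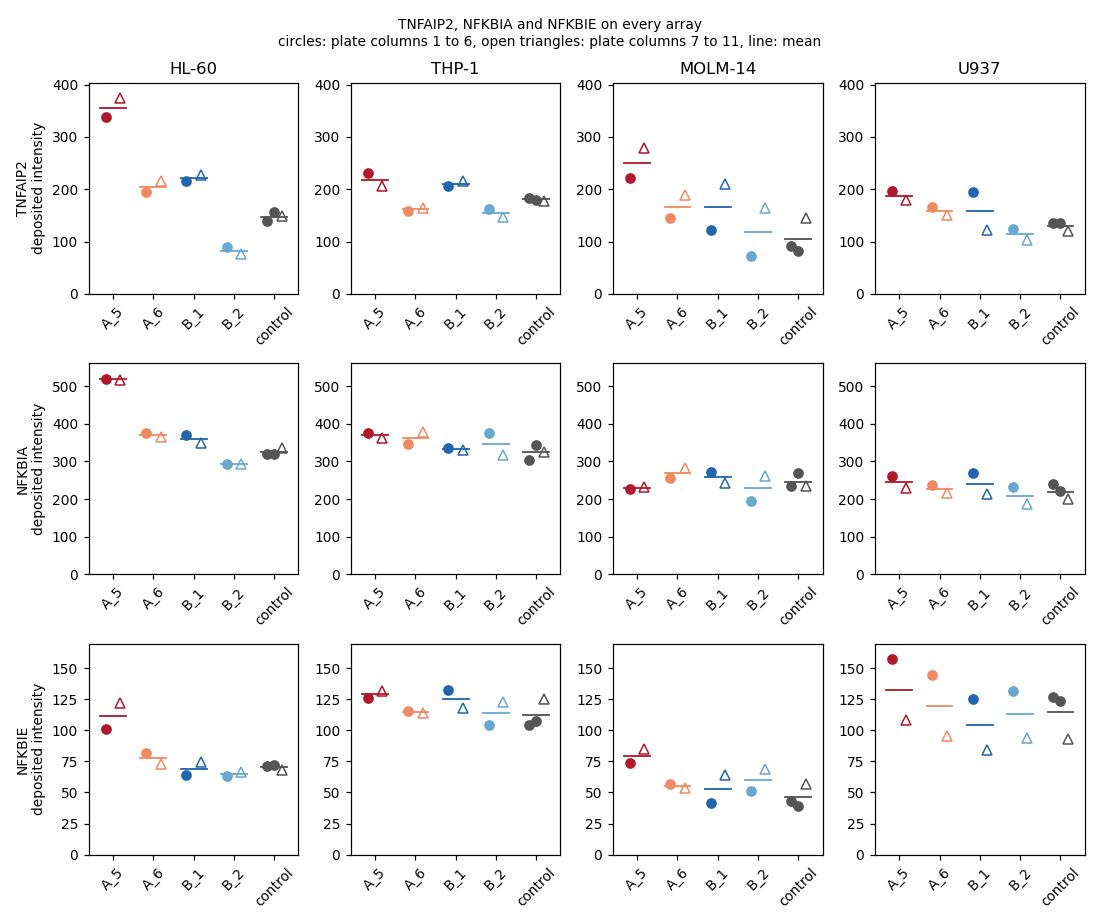
Deposited intensity (vertical axes, linear, from 0) of TNFAIP2, NFKBIA and NFKBIE on every array, by line (columns) and hairpin, with circles for plate columns 1 to 6, open triangles for plate columns 7 to 11 and a bar at each mean. In HL-60 the shGSK3A_5 arrays lie above all others for each of the 3 genes, and the triangles of U937 lie mostly below its circles.

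The 2 hairpins against GSK3A did not move the genes alike. With shGSK3A_5, over the lines, 4 of the 10 genes were called: TNFAIP2 (0.76 ± 0.11, limma adjusted p = 8e-06), NFKBIE (0.37, 0.0022) and NFKBIA (0.22, 0.00256) rose and REL fell (−0.31 ± 0.06, 2.2e-04). Of all probe sets, 17.8% were called with this hairpin. With shGSK3A_6, against 13.1% of all probe sets, none of the 10 was called by limma and 4 had an unadjusted p below 0.05, with TNFAIP2 at 0.29 (adjusted p = 0.0899), NFKBIA at 0.12 (0.139), NFKB1 at −0.09 (0.103) and RELA at −0.16 (0.209). Those 4 were called with plate columns as a block, when 24% of all probe sets were: TNFAIP2 at 0.27 (6.1e-04), NFKBIA at 0.13 (0.0305), NFKB1 at −0.08 (0.0209) and RELA at −0.15 (0.0363). Unblocked, single arrays also decided 3 of them: TNFAIP2 passed without MOLM-14 shControl replicate 3 (0.34, 0.0244) or either MOLM-14 shGSK3B_2 array, NFKB1 without U937 shControl replicate 3 (−0.12, 0.00661), and RELA without MOLM-14 shGSK3A_6 replicate 1 (−0.23, 0.0431).

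The direct comparison of the hairpins, shGSK3A_5 minus shGSK3A_6, needs no control array. It called 4 genes, against 13.3% of all probe sets. These were REL (−0.39 ± 0.06, limma adjusted p = 5.2e-05), TNFAIP2 (0.47 ± 0.12, 0.00705), NFKB1 (0.15, 0.00975) and NFKBIE (0.28, 0.0441), whose call was lost in 20 of the 44 fits that left out 1 array.

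REL encodes the subunit best known from lymphoid and myeloid activation. Its intensity in U937 was 82.4 and 96.2 with shGSK3A_5 but 127 and 149 with shGSK3A_6, against 122, 129 and 129 in controls. In THP-1 it was 53.9 and 56.9 with shGSK3A_5 and 70.9 and 78.2 with shGSK3A_6, against 69.4, 74.3 and 86.5. In HL-60 it was 42.8 and 53.1 with shGSK3A_5 and 65.1 and 71.0 with shGSK3A_6, against 54.3, 57.8 and 72.6. In each of these 3 lines both shGSK3A_5 arrays were below every control and every shGSK3A_6 array. In MOLM-14 the shGSK3A_5 arrays, at 33.9 and 35.5, overlapped the controls at 33.8, 38.8 and 42.6. By line, the fall with shGSK3A_5 was called in U937 (−0.43, limma adjusted p = 0.0281; lost without shControl replicate 1 or 2 or shGSK3A_5 replicate 1, up to 0.283), and with plate columns as a block also in THP-1 (−0.38, 0.0277). The changes with shGSK3A_6 lay between −0.02 and 0.13.

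**Figure D3:**
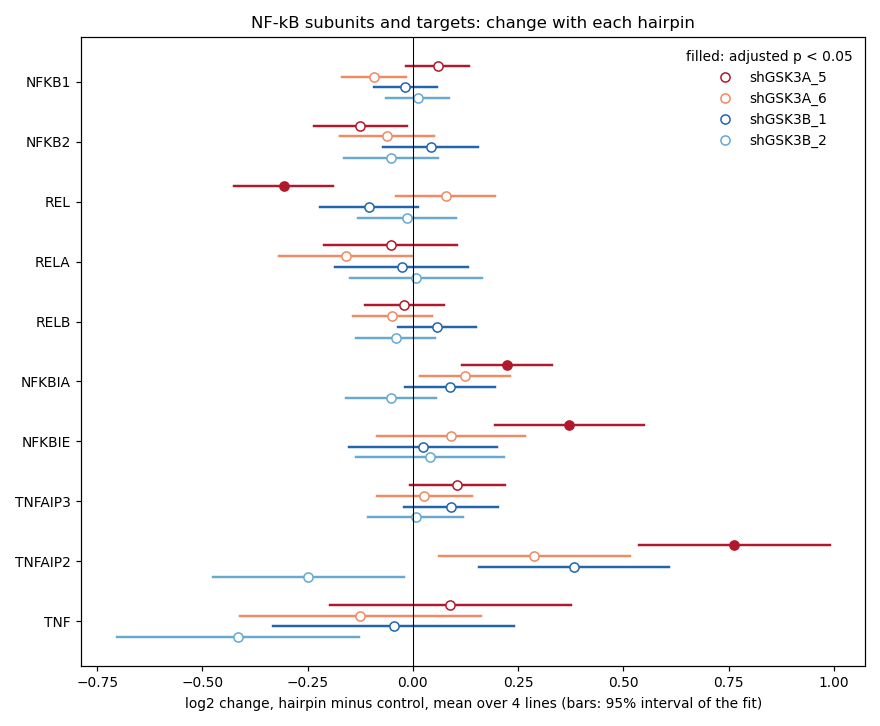
Log2 change of each gene with each hairpin minus control, averaged over the 4 lines (horizontal axis), with 95% intervals of the fit, and filled points for an adjusted p below 0.05. For TNFAIP2 the order runs from shGSK3A_5 at 0.76 to shGSK3B_2 at −0.25, and REL is a filled point below 0 for shGSK3A_5.

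The remaining subunits showed small changes with GSK3A hairpins. NFKB1 changed by −0.02 (limma, adjusted p = 0.812), and the mean hides opposite hairpin values in HL-60, where intensity was 211 and 217 with shGSK3A_5 and 155 and 167 with shGSK3A_6, on either side of the controls at 174, 181 and 181. The shGSK3A_5 rise there was 0.23 (adjusted p = 0.0465), a call lost in 29 of the 44 fits that left out 1 array. In THP-1 the NFKB1 values on GSK3A arrays, at 108.7 to 115.5, all lay above the controls at 100.5 to 107.4, without a call. NFKB2, the precursor subunit of the non-canonical branch, changed by −0.09 (0.189). In THP-1 its GSK3A arrays, at 20.2 to 27.4, all lay below the controls at 31.0 to 35.9, a change of −0.31 that missed the threshold (0.102). RELA, the main transactivating subunit, changed by −0.11 (0.323). In HL-60 its GSK3A arrays, at 182 to 226, all lay below the controls at 228 to 262 (−0.22, 0.416). RELB changed by −0.03 (0.656), and its probe set exceeded the array median on 7 of 44 arrays, so changes in RELB were hardly measurable here.

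TNF and TNFAIP3 had no common direction with GSK3A hairpins. Averaged over the lines, TNF changed by −0.02 (95% interval −0.26 to 0.22; limma, adjusted p = 0.957) and TNFAIP3 by 0.07 (0.398). Their values in single lines went both ways.

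In HL-60, TNF read 314 and 349 with shGSK3A_5 and 209.7 and 242 with shGSK3A_6, against 194, 213 and 253 in controls. In THP-1 it read 28.1 and 37.3 with shGSK3A_5 and 26.7 and 55.2 with shGSK3A_6, against 12.8, 20.04 and 23.7. In MOLM-14 it read 174 and 251 with shGSK3A_5 and 92.8 and 260.3 with shGSK3A_6, against 279.7, 284 and 307. All GSK3A arrays were thus above the controls in THP-1 and below them in MOLM-14, and in HL-60 only those of shGSK3A_5 were clear of the controls. In U937 it read 16.1 and 29.9 with shGSK3A_5 and 14.6 and 23.6 with shGSK3A_6, overlapping the controls at 20.6, 32.01 and 35.9. The THP-1 change was 0.56 (limma, adjusted p = 0.417) and the MOLM-14 change −0.62 (0.0871). The MOLM-14 change passed with plate columns as a block (−0.72, 0.00174) and without shGSK3A_6 replicate 2 (−0.96, 0.00212). It was −1.04 (0.0578) within columns 1 to 6 and −0.24 (0.931) within columns 7 to 11. TNF itself was 0.60 higher in columns 7 to 11 of MOLM-14 (7.33e-04), and the part of the plate in the change beyond these values was not tested. The difference of the TNF change between lines had an adjusted p of 0.0761 (moderated F-test), and 0.00122 with the block.

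TNFAIP3 in U937 read 107 and 115 with shGSK3A_5 and 107 and 118 with shGSK3A_6, against 70.2, 87.8 and 90.3 in controls. All 4 hairpin arrays were higher, and the change was 0.36 ± 0.09 (limma, adjusted p = 0.0185). The change was 0.25 (0.522) within columns 1 to 6 and 0.58 (0.665) within columns 7 to 11. TNFAIP3 itself differed between the column sets of U937, by −0.19 for columns 7 to 11 minus columns 1 to 6 (limma, adjusted p = 0.0265). The only U937 control in columns 7 to 11 was shControl replicate 3. In MOLM-14 TNFAIP3 read 300.4 to 329.5 with GSK3A hairpins and 338 to 381 in controls, all lower, without a call. In HL-60 (207 to 279.7 against 229 to 264) and THP-1 (98.0 to 114 against 88.2 to 107) hairpin and control arrays overlapped. The difference between lines had an adjusted p of 0.0609, and 0.00682 with plate columns as a block. The U937 call was lost with line and hairpin as a random block (0.13), without U937 shControl replicate 3, at 0.26 (0.115), without shGSK3A_5 replicate 1 (0.06) and without shGSK3A_6 replicate 2 (0.0826).

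**Figure D4:**
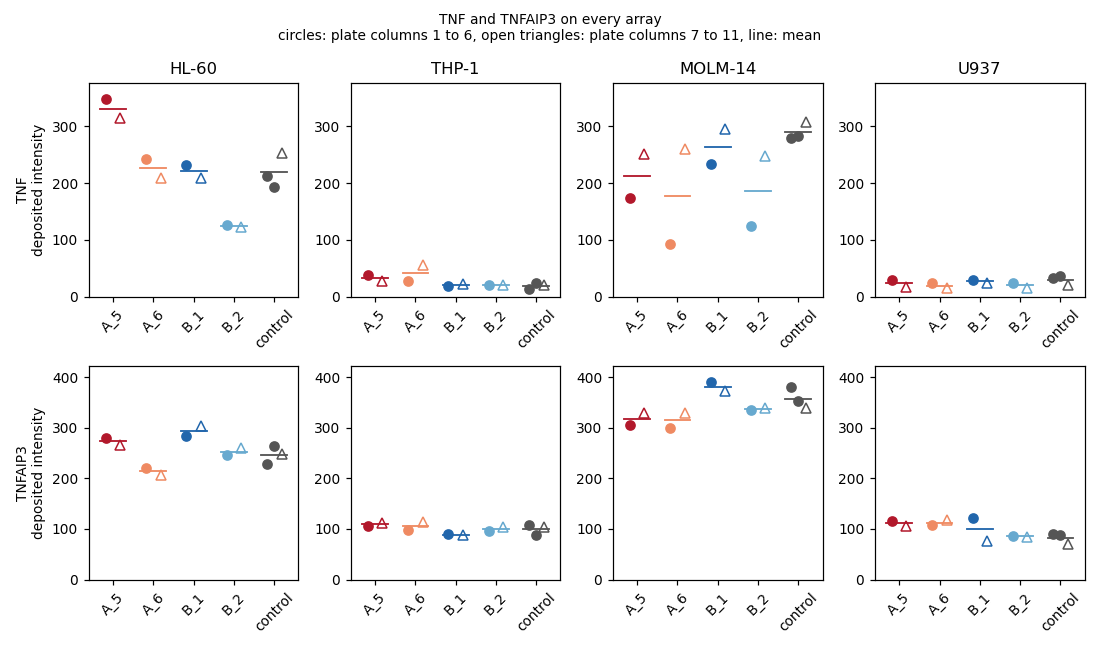
Deposited intensity (vertical axes, linear, from 0) of TNF and TNFAIP3 on every array, by line (columns) and hairpin, with circles for plate columns 1 to 6, open triangles for plate columns 7 to 11 and a bar at each mean. In MOLM-14 both genes lie below the controls on every GSK3A array, and TNF with shGSK3A_6 spans 92.8 to 260.3 between plate column sets.

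With GSK3B hairpins none of the 10 genes passed the test over the lines (limma), where 2.54% of all probe sets were called, and none had an unadjusted p below 0.05. The changes lay between −0.23 for TNF (95% interval −0.47 to 0.01, adjusted p = 0.456) and 0.07 for TNFAIP2 (−0.12 to 0.26, 0.879). The intervals leave room for a change of NFKBIA between −0.07 and 0.11 and of NFKBIE between −0.11 and 0.18. By limma no gene was called, or had an unadjusted p below 0.05, within any line either, where the test called 0.977% of probe sets in MOLM-14, 0.693% in HL-60, 0.149% in U937 and 0.0495% in THP-1.

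TNFAIP2 differed between the GSK3B hairpins. In HL-60 it read 217 and 227 with shGSK3B_1 but 75.9 and 89.1 with shGSK3B_2, against 139, 148 and 156 in controls, so the hairpins lay on opposite sides of the controls. In THP-1 it read 205 and 216 with shGSK3B_1 and 148 and 162 with shGSK3B_2, around controls at 178 to 183. In MOLM-14 it read 122 and 211 with shGSK3B_1 and 73.1 and 164 with shGSK3B_2, and in U937 122 and 194 with shGSK3B_1 and 104 and 124 with shGSK3B_2. In each plate column set of each line shGSK3B_1 was the higher. Over the lines shGSK3B_1 gave 0.38 (limma, adjusted p = 0.0505) and shGSK3B_2 −0.25 (0.264), and shGSK3B_1 minus shGSK3B_2 was 0.63 ± 0.12 (7.42e-04). It was the only one of the 10 called in that comparison, in which 8.35% of probe sets were called.

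Neither GSK3B hairpin had a called gene over the lines by limma, beside 3.55% of probe sets called with shGSK3B_1 and 4.77% with shGSK3B_2. At an unadjusted p below 0.05, where no share of all probe sets was taken, there was 1 gene with shGSK3B_1 and 2 with shGSK3B_2. The second gene with shGSK3B_2 was TNF at −0.42 (adjusted p = 0.0948). In HL-60 TNF read 122 and 126 with shGSK3B_2, below the controls at 194 to 253, and 209 and 232 with shGSK3B_1. With plate columns as a block, TNFAIP2 was called with both hairpins, at 0.37 with shGSK3B_1 (7.25e-05) and −0.26 with shGSK3B_2 (0.00196), and TNF with shGSK3B_2 at −0.43 (0.00376). Without MOLM-14 shGSK3B_2 replicate 2 the same genes passed with shGSK3B_2 unblocked, at −0.38 for TNFAIP2 (0.0196) and −0.53 for TNF (0.0234), and without MOLM-14 shControl replicate 3 TNFAIP2 passed with shGSK3B_1 (0.44, 0.012). With the block 10.1% of probe sets were called with shGSK3B_1 and 12.5% with shGSK3B_2.

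The targets were also set against each other directly. GSK3A hairpins minus GSK3B hairpins called the same 3 genes, against 17.6% of all probe sets. TNFAIP2 differed by 0.46 (limma, adjusted p = 2.34e-04), NFKBIE by 0.20 (0.0372; lost in 17 of the 44 fits that left out 1 array) and NFKBIA by 0.15 (0.00665). With line and hairpin as a random block TNFAIP2 was called (0.0226), and NFKBIE (0.095) and NFKBIA (0.0657) were not. Neither with nor without that block do the p-values hold a spread between hairpins that the lines share. For TNFAIP2 the change with shGSK3B_1 (0.38) was larger than that with shGSK3A_6 (0.29).

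Within single lines, each hairpin had 2 arrays against 3 controls. With shGSK3A_5 limma called 3 of the 10 genes in HL-60 (9.38% of all probe sets), 2 in MOLM-14 (13.5%), 1 in U937 (3.54%) and none in THP-1 (1.78%, and 2 at an unadjusted p below 0.05). NFKBIA changed by 0.64 (limma, adjusted p = 1.04e-04) and TNFAIP2 by 1.16 (5.99e-04) in HL-60, and in MOLM-14 TNFAIP2 changed by 1.17 (3.66e-04) and NFKBIE by 0.66 (0.0084). The NFKBIE call there was lost without MOLM-14 shGSK3A_5 replicate 2 (0.57, 0.0979). The other hairpins had no called gene in any line, where limma called 3.25%, 1.78%, 7.5% and 3.8% of probe sets with shGSK3A_6, 1.74%, 0.117%, 1.2% and 0.113% with shGSK3B_1, and 2.03%, 0.369%, 2.24% and 0.63% with shGSK3B_2, in the order HL-60, THP-1, MOLM-14, U937. At an unadjusted p below 0.05 there were 0, 2, 3 and 2 of the 10 genes with shGSK3A_6 in that order, 2, 0, 1 and 0 with shGSK3B_1, and 2, 0, 1 and 0 with shGSK3B_2. These counts, too, have no share of all probe sets at that threshold. Leaving out 1 array gave calls for 4 genes with shGSK3A_6. In MOLM-14, TNF passed without shGSK3A_6 replicate 2 (−1.498, adjusted p = 0.00161) and TNFAIP2 without shControl replicate 3 (0.85, 0.0147), and both passed without either shGSK3B_2 array. In U937, NFKB1 passed without shControl replicate 3 (−0.26, 0.0143) and TNFAIP3 without shGSK3B_1 replicate 1 or 2 (0.37, 0.0084). With shGSK3B_2, TNFAIP2 in HL-60 passed without either MOLM-14 shGSK3B_2 array (−0.72, 0.0285). The GSK3B change did not pass the test between lines for any of the 10 (moderated F-test, 0.176% of probe sets called, 0.842% with plate columns as a block).

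**Figure D5:**
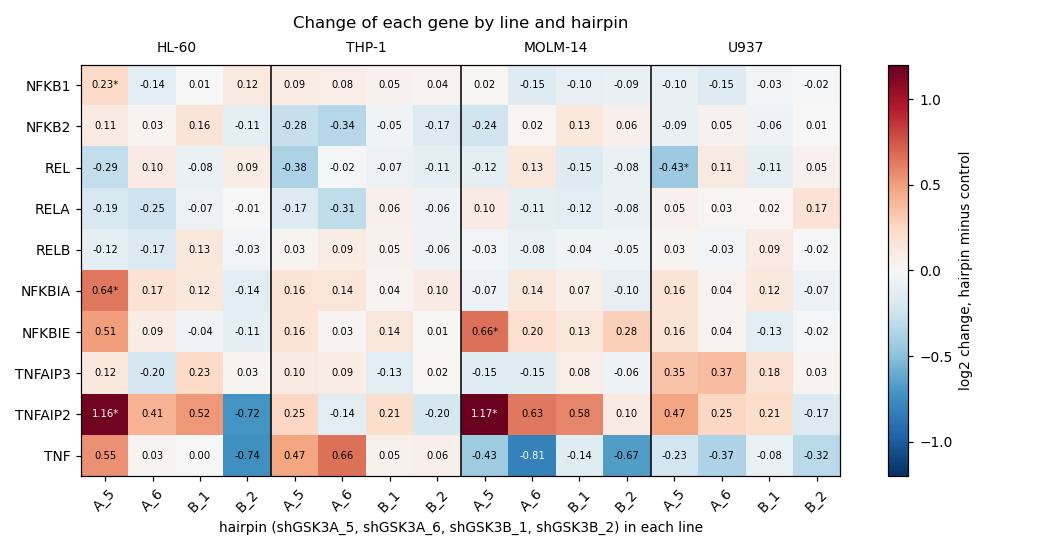
Log2 change of each gene (rows) with each hairpin minus control in each line (columns, 4 hairpins per line), with an asterisk for an adjusted p below 0.05. Called cells are those of shGSK3A_5 in HL-60 (NFKB1, NFKBIA, TNFAIP2), MOLM-14 (NFKBIE, TNFAIP2) and U937 (REL).

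Across the 16 combinations of line and hairpin, the changes of NFKBIE and TNFAIP2 ran most closely together among the member genes (Pearson r = 0.77), followed by NFKBIA and TNF (0.65). Outside the members, and among 2261 genes with at least 1 change of 0.5 or more in size, TNFAIP2 was most like MBOAT7 (0.94), SH3BGRL3 (0.94) and RIN3 (0.93). NFKBIA was most like CD14 (0.90), PSRC1 (0.87) and PLCB1 (0.86). CD14 encodes the co-receptor of monocytes for bacterial lipopolysaccharide. NFKBIE was most like PRKACA (0.88), AGFG1 (0.87) and SLC25A24 (0.86), and REL was most like AACS (0.90), ZNF274 (0.89) and CERK (0.84). These are descriptions over 16 points, and the 4 points of a line share their control arrays and plate columns.

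TNF was most like PMAIP1 (0.84), UBE2S (0.81) and HSPA13 (0.80), and TNFAIP3 was most like CD55 (0.79), SLC24A3 (0.74) and MS4A4A (0.74). NFKB1 was closest to TESC (0.79), ARFGAP3 (0.72) and MPDU1 (0.71), and NFKB2 to SYNJ1 (0.77), KLF10 (0.76) and SECISBP2L (0.73). RELA was closest to NRIP3 (0.73), OPTN (0.72) and PLIN2 (0.69), and RELB to TNFAIP6 (0.68), CALR (0.64) and RAB32 (0.61).

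Other genes of the pathway were read from 3 lists. Of 19 upstream signalling genes measured, 3 rose and 1 fell with GSK3A hairpins, beside 16.9% of all probe sets called in either direction. BIRC2, a ubiquitin ligase of the TNF receptor complex, rose by 0.23 (limma, adjusted p = 7.31e-05), MYD88, the adaptor of Toll-like and interleukin-1 receptors, by 0.19 (7.87e-05) and TNFRSF1B, a TNF receptor, by 0.18 (0.0431). TRAF3, which restrains the non-canonical branch, fell by 0.16. The median over this list was 0.02.

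Of 9 other inhibitors, 3 rose and none fell with GSK3A hairpins, beside 8.57% of all probe sets called as higher. They were CYLD, a deubiquitinase that dampens the pathway (0.29, limma adjusted p = 3.81e-04), BCL3, an atypical inhibitor family member that can also co-activate (0.16, 0.0166), and TANK, an adaptor of TRAF proteins (0.17, 0.0483). The median over this list was 0.06. Of 34 other inflammatory targets, 7 rose and 3 fell, with a median of 0.04, again beside 16.9% called in either direction. PLAU and PLAUR, urokinase and its receptor, rose by 0.41 and 0.29, IL1RN, which encodes the interleukin-1 receptor antagonist, rose by 0.39, and TNFAIP6 fell by 0.28.

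The list of inflammatory targets was also counted for each hairpin, and the difference between these counts was not tested. With shGSK3A_5 13 of its 34 genes rose and 2 fell (17.8% of all probe sets called), and with shGSK3A_6 2 rose and 2 fell (13.1%). With shGSK3B_1 4 rose and none fell (3.55%), and with shGSK3B_2 1 rose and 1 fell (4.77%). With GSK3B hairpins over the lines, MYD88 (0.14, limma adjusted p = 0.0151) and MMP9 (0.26, 0.0427) rose, and none of the other inhibitors passed.

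Myeloid markers moved with the GSK3A hairpins too. Of 9, 5 rose and 1 fell with GSK3A hairpins (16.9% of all probe sets called), and 1 rose and 1 fell with GSK3B hairpins (2.54%). The sum over the list ran from 1671 to 9219 on GSK3A arrays, from 1561 to 9529.9 on GSK3B arrays and from 1609 to 9503 on control arrays. Over both hairpins of a target, no marker of T and NK cells, B cells, erythroid and megakaryocyte cells, or epithelial and stromal cells was called against control. By single hairpin, NKG7, a T and NK marker named here after its values were seen, was lower with shGSK3A_6 (−0.44, adjusted p = 0.0124) and changed by 0.31 with shGSK3A_5. CD2, also named after its values were seen, was higher for GSK3A than for GSK3B hairpins (0.08, 0.0357). The part of the myeloid markers' change in that of the NF-kB genes was not tested.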

How the data were processed

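The deposited values are probe set intensities on a linear scale for 22277 probe sets in 44 arrays, all of whose columns matched a labelled sample. The submitters' processing notes name RMA and MAS5, and which of these gave the deposited intensities, with versions and settings, is not given in the sources used here. Values ran from 3.40 to 12933.

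After leaving out 62 control probe sets, log2(intensity + 16) was quantile-normalized, since array medians spanned 0.154, and the means of 20 groups (line and hairpin) were fitted (limma 3.58.1, R 4.3.3) over all 22215 probe sets with 24 residual degrees of freedom. P-values are two-sided and Benjamini-Hochberg adjusted over all probe sets, with a threshold of 0.05. Shares of all probe sets called are at this threshold. None was taken at an unadjusted p below 0.05, so counts of genes at that p stand without such a share. The pseudocount shrinks log2 changes of dim genes, and the number of arrays limits the precision. Errors after ± are SEs from limma, or SDs between arrays where so named. Differences between lines were tested with moderated F-tests. Hairpins share the 3 control arrays of a line.

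The platform annotation gave 19724 probe sets 1 gene, 568 several and 1923 none. Named genes are the 10 members, GSK3A and GSK3B, up to 4 called genes per pathway list and target by adjusted p, and the 3 genes most like each member. The member genes, pathway and marker lists were chosen with earlier results of these data known. Arrays of 1 plate column set deviated together in MOLM-14 and U937 (all 20 pairs of groups correlated, at 0.60 to 0.81) but not in HL-60 and THP-1 (3 of 20 pairs over 0.1), so the block was kept as an alternative, and calls that it alone gives in HL-60 or THP-1 have no such pairing behind them. By replicate number, 24 of 40 pairs were over 0.1. Other alternatives were pseudocounts of 1 and 64, median scaling or cyclic loess, a filter on mean intensity of 32, 1 probe set per gene, the second probe set of a gene, the block by plate columns (1 to 6 against 7 to 11) or replicate number, either set of plate columns alone, line and hairpin as a random block, and leaving out each line or each array. The limma step was tested on simulated arrays that deviate independently, without plate effects or differences between hairpins of a target. That test cannot judge calls where arrays of a plate column set deviate together. Promoter sequences are RefSeq's (GRCh38.p14).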

Additional observations from a re-analysis of the deposited data

Results flagged for a closer look

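Among 80 groups of 4 arrays (gene, line and target), 4 held an array set apart from the other 3 by a gap above Dixon's 95% critical share of the group's range, and chance alone gives about 1 group in 20. RELA in THP-1 was highest on shGSK3A_5 replicate 2, at 272, against 212 to 222 on the other GSK3A arrays (gap over range 0.833). REL in MOLM-14 was highest on shGSK3A_6 replicate 1, at 52.4, against 33.9 to 36.4 on the others (0.866). NFKB1 in THP-1 was highest on shGSK3A_5 replicate 1, at 116, against 109 to 109.6 (0.865). REL in U937 was lowest on shGSK3B_1 replicate 1, at 103, against 131 to 132 on the other GSK3B arrays (0.957).

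The GSK3A change differed between lines for 3 genes in a moderated F-test with plate columns as a block, which was added after the data were seen. The adjusted p was 4.59e-04 for TNFAIP2, 0.00122 for TNF and 0.00682 for TNFAIP3. TNFAIP3 lay above every control on all U937 GSK3A arrays and below every control on all MOLM-14 GSK3A arrays, and without the block the difference between lines missed the threshold (adjusted p = 0.0609). On the second TNFAIP3 probe set the U937 GSK3A arrays overlapped the controls. TNF lay above every control on all THP-1 GSK3A arrays and below every control on all MOLM-14 GSK3A arrays, and without the block its difference between lines also missed it (0.0761). For neither gene was this separation set against its share over all probe sets, which was not counted. For TNF, MOLM-14 plate column sets differed by 0.60, nearly the size of the line's GSK3A change of −0.62, and the part of the plate in the difference between lines was not tested beyond the block.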

How the results depend on the processing

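The count of member genes called was 3 with GSK3A hairpins, 0 with GSK3B hairpins and 3 for their difference. With GSK3A hairpins it was 0 of 5 on second probe sets, 1 within plate columns 1 to 6, 0 within columns 7 to 11, 1 with line and hairpin as a random block (TNFAIP2) and 5 without MOLM-14 and U937, a choice made after seeing the data. The difference between the targets gave 0, 1, 0, 1 and 5 under the same settings and 1 without HL-60. Residual degrees of freedom were 12 within columns 1 to 6, 8 within columns 7 to 11 and 12 without MOLM-14 and U937, against 24. Within either set of columns the residual spread includes that between hairpins of a target. The share of all probe sets called also changes with the setting. It is given in this section only for GSK3A and GSK3B hairpins with either block, so the other counts are not set against it. The shGSK3A_5 count of 4 became 0 on second probe sets, which tests little: of its 4 genes only REL and TNFAIP2 have one, above the array median on 0 and 6 of 44 arrays. The shGSK3A_6 count of 0 became 1 with cyclic loess, the filter on dim probe sets, without THP-1 or without MOLM-14, 2 without MOLM-14 and U937, 3 with replicate number as a block and 4 with plate columns as a block. The shGSK3B_1 count of 0 became 1 with a pseudocount of 64, median scaling, cyclic loess, the filter, 1 probe set per gene, either block, without MOLM-14, and without MOLM-14 and U937. The shGSK3B_2 count of 0 became 1 with the filter, with replicate number as a block, without MOLM-14, and without MOLM-14 and U937, and 2 with plate columns as a block. Leaving out 1 array at a time gave 2 to 4 genes for GSK3A, 0 to 0 for GSK3B, 2 to 4 for their difference, 4 to 5 for shGSK3A_5, 0 to 1 for shGSK3A_6, 0 to 2 for shGSK3B_1 and 0 to 2 for shGSK3B_2. Of changes of single genes, 1 reversed: TNF with GSK3A hairpins was 0.43 (limma, adjusted p = 0.00682) without MOLM-14 and U937, against −0.02. A further 42 passed the threshold and 28 lost it, with 950 on the same side. Over all probe sets, blocking on plate columns or replicate number called 6154 or 5446 with GSK3A hairpins, against 3759, and 1776 or 1577 with GSK3B hairpins, against 564. The cause of these differences was not tested, and RELB and NFKB2 lie too near the array medians for small changes to be read.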
